A study of Aedes aegypti with 3 samples.

Results

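The 160 genes described here were abundant in the sugar-fed mosquito hindgut by a fixed level: each stood at 1000 TPM or more in every library. They were chosen from 18728 genes with a symbol, and made up 0.854% of them. TPM measures transcript abundance as reads divided by gene length and scaled to a sum of 1000000 in a library, so that a rise in some genes lowers the values of the others in the same library. The study comprised 3 libraries of 1 group, wild type females of Aedes aegypti, non-fed by their titles and kept on sucrose without restriction, 5 to 15 days old and reared at 28°C. The names of the libraries begin with LVP-NF. Each library was made from a pool of 80 to 100 hindguts dissected from cold-anesthetized females. No other tissue, diet or genotype was included, and the labels do not say whether the pools came from separate rearings, so the SD measures the spread between these 3 pools. Because the values chose the genes, their levels, shares and order are given as a description with no test.

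The hindgut is the last section of the insect gut. It receives the urine of the Malpighian tubules together with the remains of digestion and takes back water, ions and small molecules before excretion, across an epithelium lined with cuticle and wrapped in muscle. In animal tissues in general, the transcripts present in the most copies often encode the machinery of protein synthesis, of energy metabolism and of the cytoskeleton. The table and the RefSeq gene records of the assembly AaegL5.0 used here pair the symbols with a biotype and with no product name. The genes are therefore named by symbol, no role is given to any of them, and the tissue label was not checked against marker genes.

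Of the 160 genes, 157 are recorded as protein-coding, 2 as long non-coding RNAs (lncRNAs) and 1 as a transcribed pseudogene. Replicate 1 had 59.5% of its TPM in them, replicate 2 had 54.0% and replicate 3 had 53.2%, which averaged 55.5 ± 3.41% (SD, n = 3). Most of the length-corrected signal of each hindgut library thus fell on these few genes, and replicate 1 was the library with the largest share. Levels ran from a mean of 1095.8 TPM to 17212 TPM, with a median of 2832 TPM. The 10 highest genes held 18.3 ± 0.216% of the members' TPM, the 50 highest 56.0 ± 1.26% and the 80 lowest 25.7 ± 1.97% (SD, n = 3). In the order of the means, 43 genes were enough to make up 50% of the members' TPM.

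**Figure D1:**
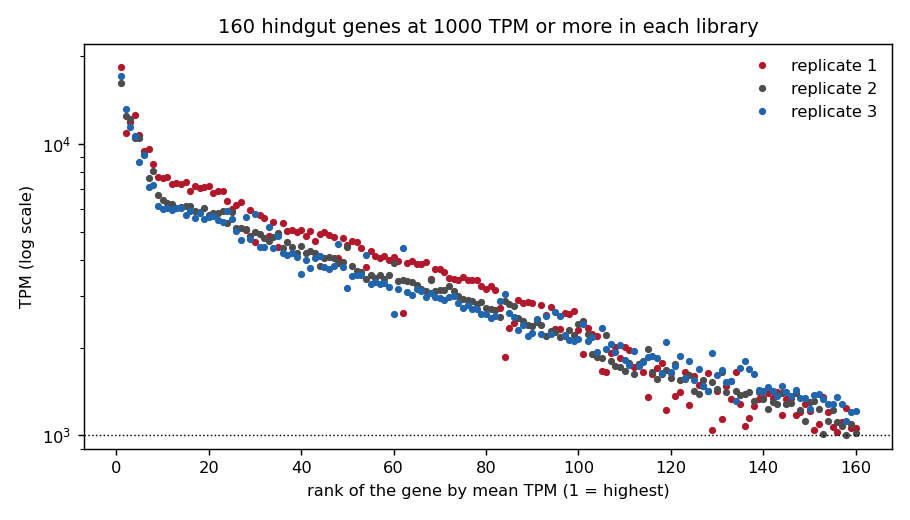
TPM of each of the 160 genes in replicates 1, 2 and 3 (points, log scale) against the rank of the gene by mean TPM; the dotted line is the level of 1000 TPM used to choose them. Values fall from 18384.6 TPM for the highest gene in replicate 1 to just above the line, and points of replicate 1 lie above those of the other libraries over much of the upper part of the curve.

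The highest gene, LOC5565544, is protein-coding and had TPM values of 18384.6, 16123.7 and 17128.2 in replicates 1, 2 and 3. It was first in every library, and its lowest library exceeded the highest library of any other gene. LOC5571051, an lncRNA, stood at 10896.8, 12466.5 and 13177.6 TPM in replicates 1, 2 and 3. LOC23687516, which is protein-coding, stood at 11861.6, 12157.1 and 11395.5 TPM, and the other lncRNA, LOC5565553, at 12606.2, 10487.1 and 10631.9 TPM. The ranges of these 3 genes overlapped, and the lncRNAs exchanged places: LOC5565553 was at rank 2 and LOC5571051 at rank 4 in replicate 1, and the reverse held in replicates 2 and 3. LOC23687516 was at rank 3 in all 3 libraries.

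Below them came 6 protein-coding genes that complete the 10 highest. LOC5573138 stood at 10754.3, 10458.0 and 8636.2 TPM in replicates 1, 2 and 3, and LOC110678734 at 9447.2, 9221.8 and 9170.2 TPM. The first of the pair spanned 1.25-fold between its highest and lowest library and the second 1.03-fold on the TPM + 1 scale, so that LOC110678734 overtook it in replicate 3. LOC5567163 stood at 9603.7, 7653.3 and 7122.3 TPM, and LOC110676045 at 8539.0, 8054.3 and 7225.8 TPM. LOC110676232 stood at 7726.1, 6684.7 and 6143.9 TPM, and LOC5570244 at 7648.7, 6436.3 and 5958.8 TPM. All 6 were highest in replicate 1 and lowest in replicate 3. The transcribed pseudogene, LOC5571846, had the same order at rank 92, with 2795.2, 2382.5 and 2227.9 TPM. Reads of a pseudogene can be shared with a near-identical gene, and the sources used here do not say how the counting treated such reads, so its level is uncertain.

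The rank order was largely kept between libraries. Spearman's rho over the 160 genes was 0.977 for replicate 1 against 2, 0.961 for replicate 1 against 3 and 0.985 for replicate 2 against 3. These are descriptions across genes that share a library and its scaling, and carry no p-value. Of the 12720 pairs of members, 90.8% stood in the same order in all 3 libraries, and in 80.9% the lowest library of the higher gene exceeded the highest library of the lower gene. The largest ratio of means at which a pair changed order was 1.49. Neighbours in the ranking could rarely be separated: of 159 pairs of consecutive ranks, 1 did not overlap, that of LOC5565544 and LOC5571051.

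The sets of top genes were shared to a similar degree. Of the 10 highest genes of each library, 9 were common to all 3, of the 50 highest 45, and of the 100 highest 93. The 160 highest genes of each library had 151 in common. The symbols at exactly the same rank among the members in every library were 3, namely LOC5565544, LOC23687516 and LOC110676232 at ranks 1, 3 and 9. The median member moved over 8 ranks between its highest and lowest position. This range was 3 ranks for the members at ranks 1 to 25, 5 ranks for ranks 26 to 80 and 12 ranks for ranks 81 to 160, where levels lie closer together. In all, 21 members moved 20 ranks or more.

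**Figure D2:**
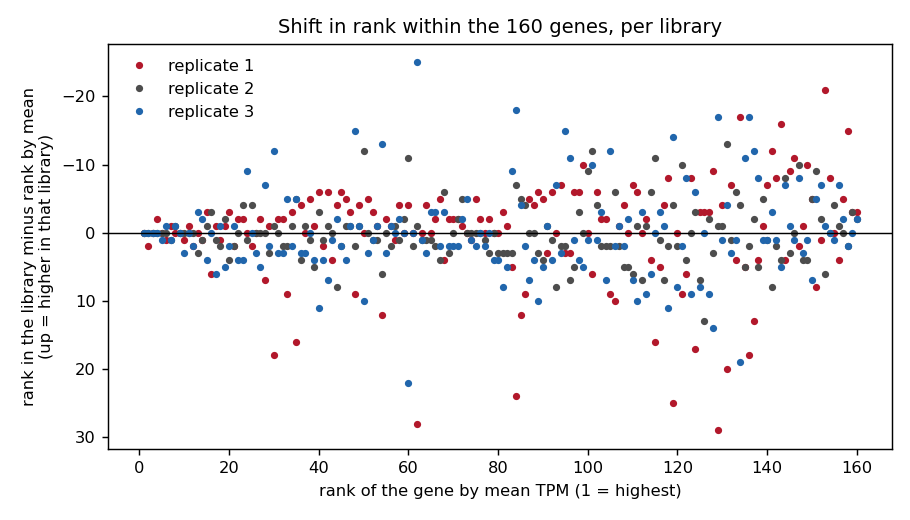
Rank of each of the 160 genes in a library minus its rank by mean TPM, for replicates 1, 2 and 3 (points), against the rank by mean; the axis is inverted, so that points drawn above the line have negative values and were ranked higher in that library. Shifts are small among the first 25 ranks and widen to the right, and the widest range, 53 ranks, belongs to LOC5565155.

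The largest movements in rank were those of 3 protein-coding genes. LOC5565155 stood at 2639.6, 3423.7 and 4396.6 TPM in replicates 1, 2 and 3, which placed it at ranks 90, 61 and 37. LOC5580231 stood at 1046.4, 1520.3 and 1914.1 TPM, at ranks 158, 128 and 112. LOC5575790 stood at 1853.1, 2901.9 and 3052.5 TPM, at ranks 108, 77 and 66. Replicate 1 was the lowest library for all 3.

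Differences between libraries were compared with those of expressed genes, a term used here for the 5735 genes, members included, whose mean reached 10 TPM. On the TPM + 1 scale as deposited, 6 of the 160 (3.75%) differed 1.5-fold or more between their highest and lowest library, against 21.2% of expressed genes. At 2-fold the members numbered 0, against 5.25%. The median ratio was nearly the same, 1.22 for members and 1.23 for expressed genes, and the 90th percentile was 1.34 against 1.76. The requirement of 1000 TPM in the lowest library works against genes with 1 low library, and 9 genes that replicates 2 and 3 would have chosen were lost to it in replicate 1. In all 6 members the highest and lowest libraries were replicates 1 and 3, in either order. The count was 1 without replicate 1, 1 without replicate 3 and 6 without replicate 2. Leaving out an extreme library can only narrow the ratio of a gene. With libraries scaled by median-of-ratios factors it was 27 (16.9%), against 13.4% of expressed genes, so whether members or expressed genes had more such differences turned with the scaling.

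The 5 widest ratios belonged to LOC5580231 at 1.83, LOC5570460 at 1.72, LOC5580173 and LOC5565155 at 1.67, and LOC5575790 at 1.65. LOC5570460 stood at 1219.2, 1681.0 and 2093.5 TPM in replicates 1, 2 and 3, and LOC5580173 at 1074.6, 1390.1 and 1798.8 TPM. All 5 were lowest in replicate 1 and highest in replicate 3. The sixth gene past 1.5-fold, LOC110676303, had the opposite order, with 4100.9, 3905.4 and 2609.0 TPM. At the other end, LOC5577723 varied least, with 1753.9, 1752.7 and 1731.0 TPM and a ratio of 1.01. LOC5576835 had a ratio of 1.02, LOC110678734 one of 1.03, and LOC5576046 and LOC5573872 ratios of 1.05.

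The library in which a gene stood highest was another point of contrast. Replicate 1 was the highest library for 98 of the 160 members, replicate 3 for 50 and replicate 2 for 12. The corresponding shares of expressed genes were 17.2%, 33.3% and 49.5%. Replicate 1 was the lowest library for 37 members (23.1%), against 66.3% of expressed genes. Replicate 2 was lowest for 40 members and replicate 3 for 83, against 17.6% and 16.1% of expressed genes. The order in which replicate 1 exceeded replicate 2 and replicate 2 exceeded replicate 3 was found in 81 members (50.6%), against 8.82%. TPM has a fixed total in each library. A larger summed share of the members in replicate 1 therefore means a smaller summed share of its remaining genes. The fixed total does not set the values of single genes. Median-of-ratios scaling, with log2 factors of -0.17, 0.11 and 0.06 for replicates 1, 2 and 3, raised the members highest in replicate 1 to 136 (85.0%). The share of expressed genes rose to 50.2%, so that the contrast in these shares was smaller on this scale. The scaling raised the members' median ratio of replicate 1 to replicate 2 from 1.13 to 1.38, while that of expressed genes went from 0.87 to 1.06. With 1 factor per library, the members' median relative to that of expressed genes stays the same.

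The 81 genes in this order resembled each other in the size of the difference. Their ratio of replicate 1 to replicate 3 had a median of 1.25 and quartiles of 1.22 and 1.28, and its 10th and 90th percentiles were 1.16 and 1.31. The ratio of replicate 1 to replicate 2 had quartiles of 1.14 and 1.21, and that of replicate 2 to replicate 3 quartiles of 1.04 and 1.09. These genes were picked by their order, which fixes the direction of each ratio, and the narrow range is a description of them.

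The library profile followed the level. Of the 103 members with a mean of 2000 TPM or more, 85 were highest in replicate 1 and 12 in replicate 3. Of the 57 members below 2000 TPM, 13 were highest in replicate 1 and 38 in replicate 3. By level, replicate 1 was the highest library for 14.7% of 34 members between 1000 and 1500 TPM, 34.8% of 23 between 1500 and 2000 TPM, 65.4% of 26 between 2000 and 3000 TPM, 89.1% of 46 between 3000 and 5000 TPM and 87.1% of 31 above. Below the members' level, it was the highest library for 15.0% of 4629 other genes between 10 and 100 TPM, 19.4% of 650 between 100 and 300 TPM and 23.4% of 282 between 300 and 1000 TPM. The median ratio of replicate 1 to replicate 2 rose over the same levels, with 0.854, 0.898 and 0.955 in other genes of 10 to 100, 100 to 300 and 300 to 1000 TPM and 0.978, 1.055, 1.154, 1.172 and 1.182 in the 5 levels of members. By this ratio a rise towards replicate 1 was seen among other genes below 1000 TPM and again among the members. The value of 0.978 in the lowest level of members, and so the step to it from 0.955, depends on the rule. The rule leaves out genes of that level with any library below 1000 TPM. Of 174 genes averaging at least 1000 TPM, those left out in this way are in neither series. Replicate 1 also enters the mean that sets the level. The median ratio of replicate 1 to replicate 3 did not rise steadily. It was 0.884, 0.88 and 0.911 in the other genes and 0.888, 0.922, 1.191, 1.241 and 1.221 in the members. The share highest in replicate 1 was 23.4% in other genes of 300 to 1000 TPM and 14.7% in the lowest level of members. The genes left out by the rule limit the reading of this step too. The median inferred gene length, described further on, was 2133, 1944 and 1589.5 bp in the other genes. In the members it was 1283.5 and 1479 bp in the lower 2 levels and 831.5, 783.5 and 1000 bp in the upper 3. The members of 2000 TPM or more held 51.3% of TPM in replicate 1, 45.6% in replicate 2 and 44.1% in replicate 3, whereas those below held 8.14%, 8.34% and 9.15%. The larger share of the members in replicate 1 was therefore carried by those of 2000 TPM or more.

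**Figure D3:**
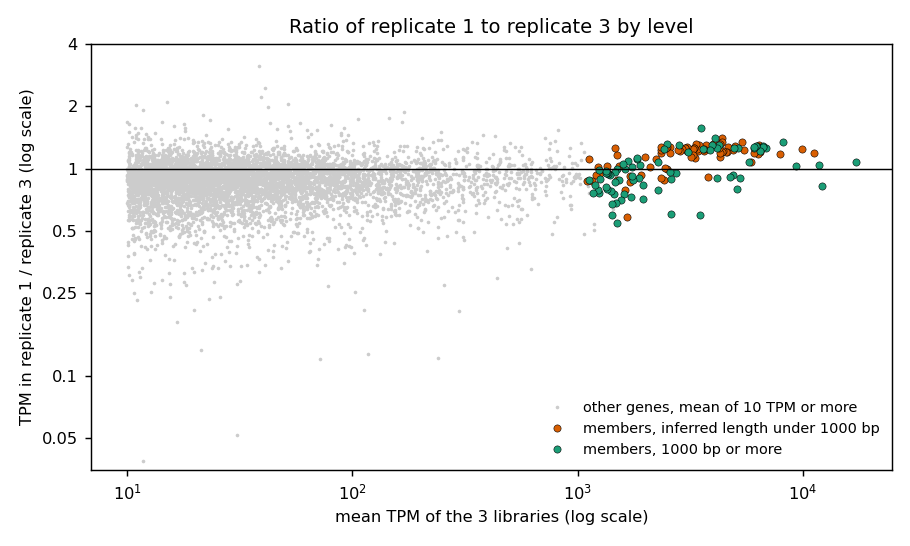
Ratio of TPM in replicate 1 to TPM in replicate 3 (log scale) against mean TPM (log scale) for expressed genes; coloured points are the 160 members by inferred length and grey points the other genes, and the line marks equal values. Most members above 3000 TPM lie in a narrow band above the line, while members below 2000 TPM scatter on both sides of it, most of them below.

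Reads and gene model lengths were inferred from the steps between values, because whole reads divided by 1 length per gene leave a pattern in the decimals of TPM. All 160 members could be solved in this way. A solution in which the reads of all 3 libraries and the length share a whole factor is found divided by it, so reads and lengths are lower limits for some genes. Inferred reads per member ranged from 4824 to 382501 in replicate 1, from 3494 to 280506 in replicate 2 and from 3679 to 314654 in replicate 3. Counting error gave a coefficient of variation of 0.539% at the median and 1.58% at most, while the coefficient of variation between libraries was 10.9% at the median. These counting errors cover counting only, since reads without molecular identifiers are not independent molecules. The members took 38.8 ± 3.81% of inferred reads (SD, n = 3), less than their 55.5% of TPM.

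Members had short gene models. The median inferred length was 986.5 bp, with quartiles of 702.5 and 1516.2 bp, against 2025 bp for the 5727 expressed genes whose length could be inferred. Of the 160 members, 83 (51.9%) were under 1000 bp, against 18.1% of those expressed genes, and 8 were over 3000 bp. TPM divides reads by length, so the level that chose the members and their length share a term. The longest was LOC5575790 at 8066 bp, which also had the most RefSeq transcript records of any member, with 25. Members had few recorded transcripts in general: 124 of 160 (77.5%) had 1 record, against 59.6% of expressed genes. Within the members, length and mean TPM were weakly related, with Spearman's rho of -0.20 across the 160 genes.

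Length and library profile went together in the members. Replicate 1 was the highest library for 87.5% of the 40 members under 700 bp, 76.7% of 43 between 700 and 1000 bp, 55.6% of 36 between 1000 and 1500 bp, 29.2% of 24 between 1500 and 2500 bp and 17.6% of 17 of 2500 bp or more. In the same 5 classes of expressed genes outside the members it was 33.3%, 36.3%, 29.2%, 16.6% and 2.31%, with no fall between the shortest classes. Members were thus more often highest in replicate 1 than other genes in each length class. The median ratio of replicate 1 to replicate 2 in these classes was 1.171, 1.153, 1.132, 0.975 and 0.893 in the members. In the other genes it was 1.032, 1.03, 0.972, 0.905 and 0.742. Spearman's rho over the 160 members was -0.56 between length and the ratio of replicate 1 to replicate 2, and 0.47 between mean TPM and that ratio. For the ratio of replicate 1 to replicate 3 the values were -0.44 with length and 0.60 with mean TPM, and for that of replicate 2 to replicate 3 they were -0.18 and 0.52. The members of 2000 TPM or more that were highest in replicate 1 had a median inferred length of 761 bp, and the 18 that were not had one of 1779 bp. Members under 1000 bp held 32.7%, 28.4% and 27.6% of TPM in replicates 1, 2 and 3, whereas the longer ones held 26.7%, 25.6% and 25.7%. The part of transcript length, RNA quality or library preparation in the profile of replicate 1 was not tested.

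**Figure D4:**
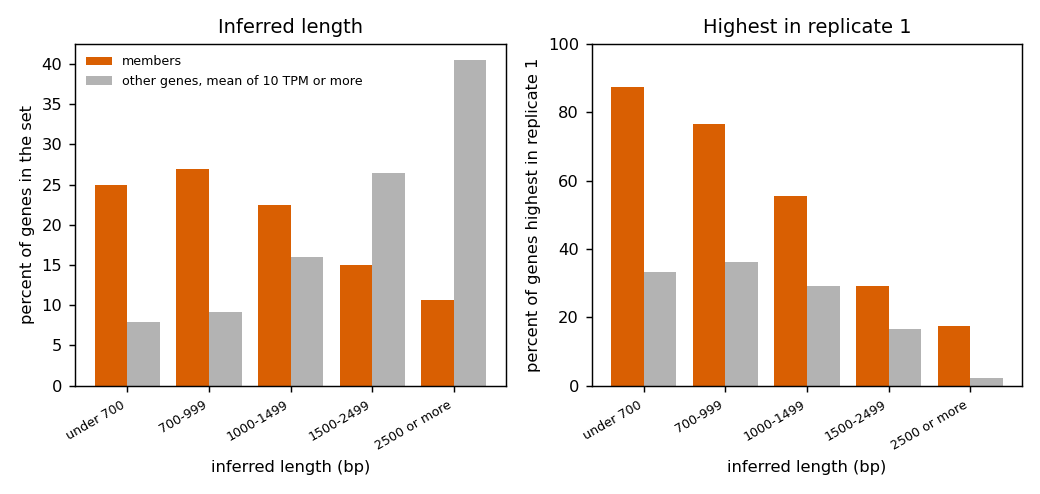
Left, percent of the 160 members (orange) and of expressed genes outside the members (grey) in 5 classes of inferred length (bp); right, percent of the genes in each class whose highest library was replicate 1. Members are concentrated in the shorter classes, and in every class more of them than of the other genes were highest in replicate 1.

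The boundary at 1000 TPM was not marked by a gap. Just inside it lay LOC5574816, with 1003.3 TPM in its lowest library, LOC5572220 with 1010.3 TPM and LOC5571609 with 1017.7 TPM. Just outside lay LOC5578927, with 997.7 TPM in its lowest library, LOC5568441 with 989.5 TPM and LOC5573851 with 977.9 TPM. The SD of each of these genes between libraries was larger than the distance of its lowest library from the boundary. LOC5574816 stood at 1120.9 ± 119.1 TPM and LOC5568441 at 1113.2 ± 110.0 TPM (SD, n = 3). In all, 191 genes reached 1000 TPM in at least 1 library, 31 of them in some libraries only. Of the 169 genes that replicates 2 and 3 alone would choose, 160 (94.7%) reached 1000 TPM in replicate 1, and the other 9 stood there between 699.5 and 989.5 TPM. Replicate 2 retained 160 of the 161 genes chosen by the other libraries and replicate 3 retained 160 of 163.

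Members were spread along the whole table, whose rows follow the order of the AaegL5.0 gene records. The first lay in row 56 and the last in row 17439 of 18728. The median distance between successive members was 75 rows and the largest 460 rows. In the 18 full blocks of 1000 rows, the number of members ranged from 4 to 15 with a median of 8.5. The block with the most, rows 12001 to 13000, also had the largest share of members among its expressed genes, 15 of 351 (4.27%). Those 15 members held 5.14% of TPM. The lowest share of members among expressed genes in a full block was 1.86%. It was reached in rows 3001 to 4000 and again in rows 5001 to 6000. The 7 members of the latter block held 4.66% of TPM, with LOC5565544 and LOC5565553 among them. The number of members in a block and their share of TPM thus did not rank blocks alike. Among the 1500 rows that AaegL5.0 places on no chromosome, 1 was a member (0.0667%), against 0.923% of the placed rows. Those rows also held fewer expressed genes, 5.4% against 32.8%.

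**Figure D5:**
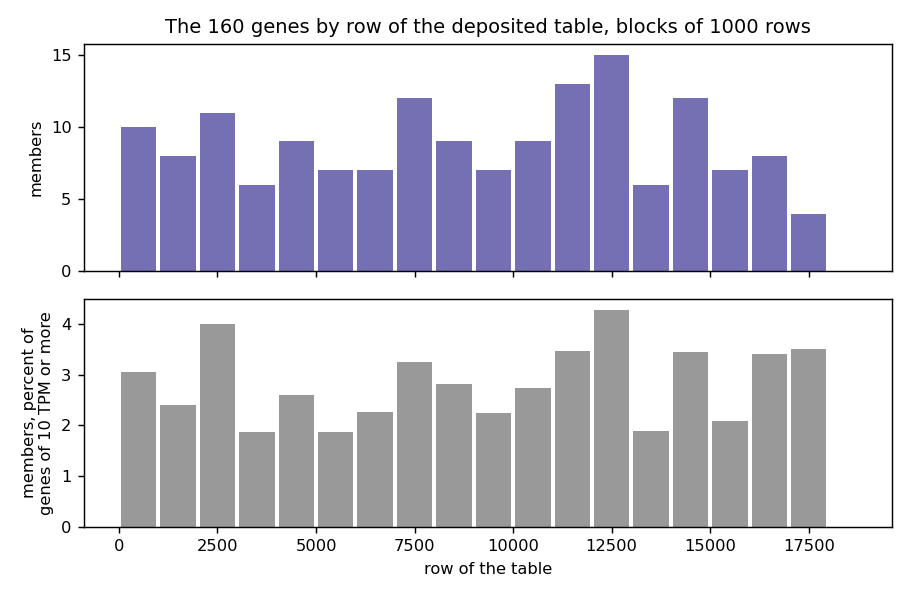
Number of members in successive blocks of 1000 rows of the deposited table (upper bars) and members as a percent of the expressed genes of the block (lower bars); the last block has 728 rows. Members occur in all 18 full blocks, with 4 to 15 in each, and the last block has 0.

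Direct neighbours were few. A total of 12 members (7.50%), in 6 pairs, had another member in the next or previous row, against 2.53% of expressed genes and 1.71% of all rows. No run was longer than a pair (0 runs of 3 or more). The pairs were LOC5567660 with LOC5576758, LOC5568363 with LOC5568362, LOC5571051 with LOC110676303, LOC5570243 with LOC5570244, LOC5563590 with LOC5563592 and LOC5576215 with LOC5576214, all named after their values had been seen. In 1 pair, LOC5570243 and LOC5570244, both genes had the same order of libraries, at 3734.9, 3132.7 and 2977.7 TPM for the former and 7648.7, 6436.3 and 5958.8 TPM for the latter in replicates 1, 2 and 3. The lncRNA LOC5571051 and its neighbour LOC110676303 had opposite orders, the lncRNA being lowest in replicate 1 and LOC110676303 lowest in replicate 3. Levels of neighbours differed by up to 3.44-fold in their means, as in that pair. Whether overlapping models or reads without strand contributed to the values of neighbours was not tested.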

How the data were processed

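Libraries were made with the NEBNext Ultra II kit from RNA purified with TRIzol and a Qiagen kit, per the labels' protocols. The submitters' processing notes name Trimmomatic 0.36 and STAR 2.5.2b; the sources used here name no counting tool, genome build or annotation. The authors deposited 1 table of TPM values, each library summing to 1000000. Its columns were matched by the column names in the labels, with 0 left over, and the 1 row without a symbol was dropped from genes and totals. All 18728 symbols matched RefSeq records of AaegL5.0, from which no coordinates are given.

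Members are rows at 1000 TPM or more in every library. The members and comparisons were chosen with earlier results of these data known. Ratios between libraries use TPM + 1, and the expressed genes they are compared with have a mean of 10 TPM or more. For inferred reads, the shortest length up to 60000 bp was sought at which all values are whole reads to within the rounding of decimal 4, keeping solutions with fewer than 0.05 expected by chance; the scale in bp came from genes whose model equals their span. This solved 12970 of 13015 genes above 0 in at least 2 libraries, with 20434044, 19474009 and 20112520 reads in replicates 1, 2 and 3. In no member did the length exceed the span (0 of 160). Named genes are the 10 highest, the 5 widest and 5 narrowest ratios, 3 on each side of the boundary, and those not protein-coding; genes of the widest rank changes, neighbouring pairs, the longest model and the sixth past 1.5-fold were named after their values were seen. No test between conditions was made with 1 group. Python 3.11.15, numpy 2.4.6, pandas 2.3.3 and scipy 1.17.1 were used.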

Additional observations from a re-analysis of the deposited data

Results flagged for a closer look

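The row without a gene symbol, which the rule dropped, carried a signal outside the gene comparisons, with a mean of 1904 TPM. It stood at 2229.9, 1766.0 and 1716.2 TPM in replicates 1, 2 and 3, so that it also lay above 1000 TPM in every library. Of the 160 members, 107 had a higher mean. No control library sets a background for it.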

How the results depend on the processing

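At 500 TPM the members numbered 277 and held 64.6% of TPM, and at 2000 TPM they numbered 100 and held 46.3%. With the mean of the libraries at 1000 TPM or more, they numbered 174 and held 57.1%. Without each replicate in turn they numbered 161 to 169 and held 54.7 to 57.0%. Mean Spearman's rho of ranks, 0.974 as reported, was 0.961 at 2000 TPM and 0.961 to 0.979 without each replicate, and Kendall's tau was 0.877. Members differing 1.5-fold, 6 of 160 as reported, numbered 27 with median-of-ratios scaling (16.9%, against 13.4% of expressed genes). They numbered 17 of 277 at 500 TPM, 2 of 100 at 2000 TPM and 1 to 6 without each replicate. Members lowest in replicate 1, 37 of 160 as reported, numbered 13 with that scaling (8.12%, against 32.6% of expressed genes). They numbered 93 of 277 at 500 TPM and 7 of 100 at 2000 TPM. The share highest in replicate 1, 61.2% as reported, was 85.0% with that scaling (against 50.2% of expressed genes), 46.2% at 500 TPM and 84.0% at 2000 TPM. It was 39.0% in members of 1000 bp or more. Expressed genes outside the members had 29.2%, 16.6% and 2.31% in the length classes from 1000, 1500 and 2500 bp. The share under 1000 bp, 51.9% as reported, was 43.7% at 500 TPM and 64.0% at 2000 TPM. Members with a neighbouring member, 12 of 160 as reported, numbered 18 of 277 at 500 TPM and 10 of 100 at 2000 TPM. Under the other alternatives run they numbered 12 to 14. No matching background is given for these sets. Of 44 alternatives for these results, 23 stayed within 1.5 times a count or within the spread or interval of a value. Thresholds change which genes are counted; the cause of the other changes was not tested. Alternatives for the share highest in replicate 1, the share under 1000 bp and named genes were chosen after seeing the data. Those for proteins, sequence relatives and promoters were not run, for lack of sequences. No paired analysis was possible because all libraries belong to 1 group.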
